A study of Mus musculus with 15 samples.

Results

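The 10 genes described here encode the enzymes of hepatic fatty acid synthesis and their regulators. They are the transcription factor gene Srebf1, the lipogenic regulator Thrsp and the enzymes Acly, Me1, Acaca, Acacb and Fasn. The elongases Elovl6 and Elovl5 and the desaturase Scd1 complete them. They were taken by symbol from the 19938 genes measured on Affymetrix whole-transcript arrays, each by its brightest probe set on average. All 10 had a probe set. The arrays were hybridised with RNA from the whole livers of 15 C57BL/6 mice, all 8 weeks old, all labelled male and with free access to chow, with 5 groups of 3 mice and an array for each animal. WT mice had floxed NEMO alleles that were left intact. The Jnk1 KO and the Jnk2 KO animals were global Jnk1-/- and Jnk2-/- mice, which lacked the kinase JNK1 or JNK2 in every cell. The double knockouts, NEMO/Jnk1 DKO or NEMO/Jnk2 DKO, carried the same global knockouts together with NEMOΔhepa, a deletion of the NF-kB regulator NEMO by a Cre under the albumin promoter. The deletion was thus directed at hepatocytes, although NEMO was not measured by cell type here, and no group lacked NEMO alone. The hour of killing and the time since the last meal, to which these genes are known to respond, are not given in the sources used here.

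Fatty acid synthesis turns surplus carbohydrate into fat. Citrate exported from mitochondria is cleaved by ATP citrate lyase (Acly) to acetyl-CoA, the acetyl-CoA carboxylases (Acaca, Acacb) make malonyl-CoA from it, and fatty acid synthase (Fasn) builds palmitate with NADPH supplied in part by malic enzyme (Me1). Elovl6 and Elovl5 lengthen the product and Scd1 desaturates it. In the liver the genes are induced after feeding, by SREBP1c (encoded by Srebf1) downstream of insulin and by ChREBP (encoded by Mlxipl) in response to glucose metabolites, and several, Thrsp among them, also answer to thyroid hormone.

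Values are log2 expression levels (RMA), and a difference of 1 is a doubling. Differences come from limma fitted to all 19938 genes, are given with their standard error (SE), and passed where the p adjusted over all genes (Benjamini-Hochberg) was under 0.05. In whole-liver RNA fewer cells of a type and less RNA per cell cannot be told apart. The arrays themselves set limits. Mapk9, which encodes JNK2, read 2.39 to 3.28 in the arrays labelled Jnk2-null and 7.41 to 7.67 in the others, and Mapk8, which encodes JNK1, read 5.87 to 6.53 in the arrays labelled Jnk1-null and 6.58 to 7.03 in the others. For NEMO, 2 arrays stood against their labels. Jnk1 KO replicate 1 and Jnk2 KO replicate 3, labelled NEMO-intact, had Ly6d at 10.12 and 9.70 and Mmp12 at 8.66 and 8.21, within the range of the 6 DKO arrays (7.88 to 10.48 and 7.54 to 8.96), and the remaining arrays without the deletion did not exceed 5.35 and 4.88. Ikbkg, which encodes NEMO, read 6.75 and 6.24 in these 2 arrays, 6.18 to 6.85 in the DKO arrays and 7.03 to 7.41 in the remaining 7. In addition, 3 arrays labelled male showed the female pattern, with Xist on and the Y-linked genes off: Jnk1 KO replicate 1 and NEMO/Jnk1 DKO replicates 1 and 2. The results on the 10 genes are therefore given for all 15 arrays as labelled and for 13 arrays, without the 2 doubted ones, which leaves n = 2 in Jnk1 KO and in Jnk2 KO.

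The promoters of 4 members are printed because these genes either moved in the comparisons described further on (Elovl6, Thrsp and Acacb) or carry the central reaction (Fasn). Each runs from 250 bases before to 50 bases after a start listed for the gene, 5′ to 3′ on the gene's strand, from RefSeq on GRCm38.p6. The listed starts of Acacb and Fasn lie inside the annotated genes (chr5:114146321-114250761 and chr11:120805958-120825166), so these windows are not at the genes' outer ends. Capitals mark CCAAT or its reverse complement, the box bound by NF-Y, a known partner of SREBP1c. Thrsp lies at chr7:97417501-97417800 (minus strand), Acacb at chr5:114165268-114165567 (plus), Elovl6 at chr3:129532136-129532435 (plus) and Fasn at chr11:120824498-120824797 (minus).
Thrsp: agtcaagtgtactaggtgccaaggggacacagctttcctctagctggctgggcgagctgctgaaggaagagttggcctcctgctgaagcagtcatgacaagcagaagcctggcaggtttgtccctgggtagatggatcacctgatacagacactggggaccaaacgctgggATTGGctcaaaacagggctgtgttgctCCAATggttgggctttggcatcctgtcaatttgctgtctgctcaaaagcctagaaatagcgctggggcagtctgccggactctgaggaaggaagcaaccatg
Acacb: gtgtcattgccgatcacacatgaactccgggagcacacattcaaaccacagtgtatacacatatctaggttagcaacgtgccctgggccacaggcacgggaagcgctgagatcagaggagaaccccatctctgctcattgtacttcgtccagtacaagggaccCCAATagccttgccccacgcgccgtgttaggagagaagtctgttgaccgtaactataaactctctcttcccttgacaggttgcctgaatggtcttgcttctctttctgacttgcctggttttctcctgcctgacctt
Elovl6: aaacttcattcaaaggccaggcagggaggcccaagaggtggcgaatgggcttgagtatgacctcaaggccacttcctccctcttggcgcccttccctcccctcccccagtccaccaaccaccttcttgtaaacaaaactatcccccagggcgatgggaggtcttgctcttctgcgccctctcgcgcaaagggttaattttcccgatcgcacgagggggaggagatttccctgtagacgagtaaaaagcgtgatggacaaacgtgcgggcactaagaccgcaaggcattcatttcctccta
Fasn: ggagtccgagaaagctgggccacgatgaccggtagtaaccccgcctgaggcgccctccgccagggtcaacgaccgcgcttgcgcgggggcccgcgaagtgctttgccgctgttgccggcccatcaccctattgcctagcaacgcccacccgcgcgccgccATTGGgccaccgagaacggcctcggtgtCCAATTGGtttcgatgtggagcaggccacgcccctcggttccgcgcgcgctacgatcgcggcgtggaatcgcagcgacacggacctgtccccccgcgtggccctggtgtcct
The letters searched, on both strands, were TCACNCCAC (a core of the sterol regulatory element), CACGTG (an E-box), CCAAT and GGGCGG (a GC box). Of the 9 members with an entry in the RefSeq promoter table (Scd1 had none), 7 held CCAAT in at least 1 of their windows: Acacb, Acly, Elovl5, Fasn, Me1, Srebf1 and Thrsp. By window, 8 of the 12 member windows held it, against 37.4% of all 32851 promoter windows. The Acaca window (chr11:84195188-84195487) also lies inside its gene (chr11:84129635-84401651). So does every Srebf1 window, within chr11:60199084-60224186. The Me1 window that held CCAAT (chr9:86687228-86687527) lies inside its gene (chr9:86581363-86695914), and the Me1 window at the gene's outer start held no CCAAT. In Thrsp the matches began 79 and 52 bases before the listed start and in Acacb 87 bases before it. In Fasn they began 90, 62 and 59 bases before it, where the last pair overlap. The Elovl6 window held none of the 4 motifs. The E-box was in 1 of the 12 member windows (of Elovl5) and in 7.15% of all windows. The GC box was in 4 of the 12 member windows (of Acly, Me1 and Srebf1) and in 35.7% of all windows, and TCACNCCAC was in no member window and in 1.24% of all.

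Among the regulators, Srebf1 had its lowest group means in the Jnk2-null groups. It read 8.39, 8.82 and 7.80 in WT, 8.79, 8.43 and 8.48 in Jnk1 KO, and 8.91, 8.58 and 8.31 in NEMO/Jnk1 DKO (replicates 1 to 3 in each). It read 8.10, 7.77 and 8.17 in Jnk2 KO and 7.84, 7.82 and 8.18 in NEMO/Jnk2 DKO. As labelled, Jnk1 KO lay wholly above Jnk2 KO, as did 4.5% of all genes, and NEMO/Jnk1 DKO wholly above NEMO/Jnk2 DKO, as did 7.12%. WT spanned nearly the whole range and overlapped each group. Jnk1 KO exceeded Jnk2 KO by 0.55 (SE 0.22, limma adjusted p = 0.621) and NEMO/Jnk1 DKO exceeded NEMO/Jnk2 DKO by 0.65 (SE 0.22, adjusted p = 0.643), so neither difference passed. Without the 2 doubted arrays these were 0.52 (adjusted p = 0.535) and 0.65 (adjusted p = 0.394).

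Thrsp, whose product promotes lipogenic gene expression, varied the most of the 10, over 2.64 log2 units. It read 9.30, 9.64 and 9.35 in WT, 8.19, 10.38 and 10.31 in Jnk1 KO and 9.50, 10.22 and 9.15 in Jnk2 KO. It read 9.85, 8.59 and 9.32 in NEMO/Jnk1 DKO and 8.34, 8.90 and 7.74 in NEMO/Jnk2 DKO. The 3 NEMO/Jnk2 DKO livers were all below every WT liver, as was so for 15.9% of all genes. They were also below every Jnk2 KO liver, as was so for 6.38%. Within Jnk1 KO the doubted replicate 1 stood about 2 units under the other 2 arrays, and with both doubted arrays left out the within-group SD went from 0.72 to 0.48.

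Of the 2 genes that supply acetyl-CoA and NADPH, Acly was highest in NEMO/Jnk1 DKO. It read 10.72, 9.996 and 10.32 there, against 9.63, 10.05 and 9.65 in WT and 9.55, 9.76 and 9.94 in Jnk1 KO. In Jnk2 KO it read 9.99, 10.34 and 9.99, and in NEMO/Jnk2 DKO 9.87, 9.68 and 10.01. NEMO/Jnk1 DKO lay wholly above Jnk1 KO, as did 2.52% of all genes, but overlapped WT, since WT replicate 2 exceeded NEMO/Jnk1 DKO replicate 2. Me1 spread over 1.47 units without a separated group. Its lowest value, 9.27, was the doubted Jnk1 KO replicate 1, beside 10.58 and 10.74 in the rest of that group. In the other groups Me1 read 9.80 to 10.72, and leaving out the doubted arrays took its within-group SD from 0.46 to 0.26.

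The carboxylases behaved unlike each other. Acaca, which makes malonyl-CoA for synthesis in the cytosol, read 8.50, 8.89 and 8.22 in WT and 8.53, 8.87 and 8.68 in Jnk1 KO, but 9.26, 9.62 and 9.39 in Jnk2 KO. It read 9.07, 8.88 and 9.13 in NEMO/Jnk1 DKO and 8.97, 9.46 and 8.80 in NEMO/Jnk2 DKO. Jnk2 KO lay wholly above WT, as did 6.16% of all genes, and wholly above Jnk1 KO, as did 3.51%. Acacb, whose mitochondrial malonyl-CoA is known to restrain fatty acid oxidation, was tight and low in NEMO/Jnk2 DKO, at 7.93, 7.93 and 7.79. It read 8.01, 8.41 and 8.04 in WT, 8.41, 8.09 and 8.35 in NEMO/Jnk1 DKO, 7.33, 9.02 and 8.49 in Jnk1 KO and 8.42, 8.78 and 7.86 in Jnk2 KO. In both single knockouts the doubted array was the lowest of its group, and the within-group SD went from 0.46 to 0.22 when both were left out.

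Fasn read 9.77, 10.29 and 9.34 in WT, 9.48, 10.07 and 10.08 in Jnk1 KO and 9.96, 10.73 and 10.53 in Jnk2 KO. It read 10.66, 10.02 and 10.67 in NEMO/Jnk1 DKO and 10.15, 10.46 and 9.71 in NEMO/Jnk2 DKO. Group means ran from 9.80 ± 0.48 (SD, n = 3) in WT through 9.88 ± 0.34 in Jnk1 KO, 10.10 ± 0.38 in NEMO/Jnk2 DKO and 10.41 ± 0.40 in Jnk2 KO to 10.45 ± 0.37 in NEMO/Jnk1 DKO. All groups overlapped WT, and no neighbours in this order differed beyond their spread.

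Elovl6, which extends palmitate to stearate, separated the groups best. It read 8.63, 8.53 and 8.40 in WT and 8.92, 8.46 and 8.76 in Jnk1 KO. It read 8.98, 9.25 and 9.38 in Jnk2 KO, 9.81, 9.14 and 9.45 in NEMO/Jnk1 DKO and 8.95, 9.27 and 8.69 in NEMO/Jnk2 DKO. All WT livers were below every Jnk2 KO liver, as was so for 6.16% of all genes. They were also below every NEMO/Jnk2 DKO liver (11.8% of all genes) and every NEMO/Jnk1 DKO liver (11.5%). All Jnk1 KO livers were below every Jnk2 KO liver (3.51% of all genes) and every NEMO/Jnk1 DKO liver (2.52%). Means ran in the order WT (8.52 ± 0.12), Jnk1 KO (8.71 ± 0.24), NEMO/Jnk2 DKO (8.97 ± 0.29), Jnk2 KO (9.20 ± 0.21) and NEMO/Jnk1 DKO (9.47 ± 0.34; SD, n = 3 each), and each group overlapped with its neighbours in this order.

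Elovl5, which extends polyunsaturated and monounsaturated chains, read 11.19, 11.60 and 11.17 in WT and 11.35, 11.60 and 11.25 in Jnk1 KO. It read 11.74, 12.08 and 11.62 in Jnk2 KO, 11.87, 11.60 and 11.75 in NEMO/Jnk1 DKO and 11.97, 11.75 and 11.49 in NEMO/Jnk2 DKO. WT lay below all Jnk2 KO and all NEMO/Jnk1 DKO livers, as was so for 6.16% and 11.5% of all genes. The margins were narrow. The highest WT array read 11.5964, and the lowest arrays of Jnk2 KO and NEMO/Jnk1 DKO read 11.6155 and 11.5982. Scd1, the delta-9 desaturase, moved least, over 0.68 units in all 15 arrays (12.04 to 12.72). Its group means were 12.37 to 12.64.

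**Figure D1:**
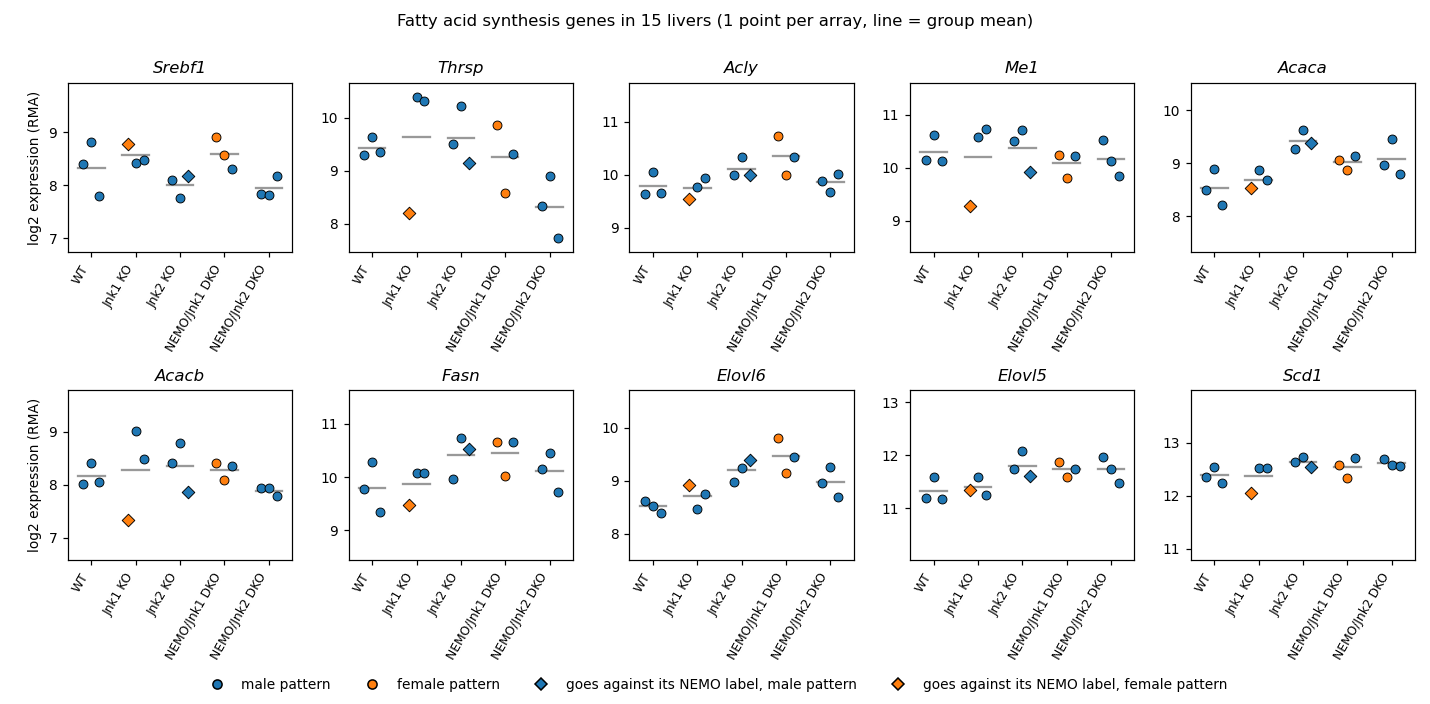
Log2 expression (RMA, vertical axes, each spanning 3.2 units) of the 10 genes in the 15 livers by group (horizontal axes). Each point is 1 array, lines are group means, diamonds are the 2 arrays that go against their NEMO label and orange marks the 3 arrays with the female pattern. Elovl6 lies lowest in WT (8.40 to 8.63), Thrsp has its lowest group mean in NEMO/Jnk2 DKO (8.33), and Acaca its highest in Jnk2 KO (9.42).

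In some livers several members had their highest or lowest values together, while others did not. How far the members varied together was not tested. Jnk2 KO replicate 2 had the highest of the 15 values for Fasn, Acaca, Scd1 and Elovl5, and for 8 of the 10 members it was among the highest 3, whereas its Srebf1 was the lowest of all. WT replicate 3 had the lowest values for Fasn, Acaca, Elovl5 and Elovl6, and WT replicate 2 exceeded the other WT arrays for every member but Elovl6. The doubted Jnk1 KO replicate 1 had the lowest Acacb, Acly, Scd1 and Me1, but the highest Elovl6 (8.92) and Srebf1 (8.79) of its group. By the correlation of deviations from the group means with the mean scaled deviation of the members, the most similar of all other genes were Kifc2 (Pearson's r = 0.91), Vmn1r215, Vwa8, 2810039B14Rik and Olfr373 over the 15 arrays. Over 13 arrays they were Gdpgp1 (0.97), Cadm1, Ccna1, Ticam1 and Sprr2f, so the 2 lists share no gene. The deviations of these genes had SDs of only 0.07 to 0.25.

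**Figure D2:**
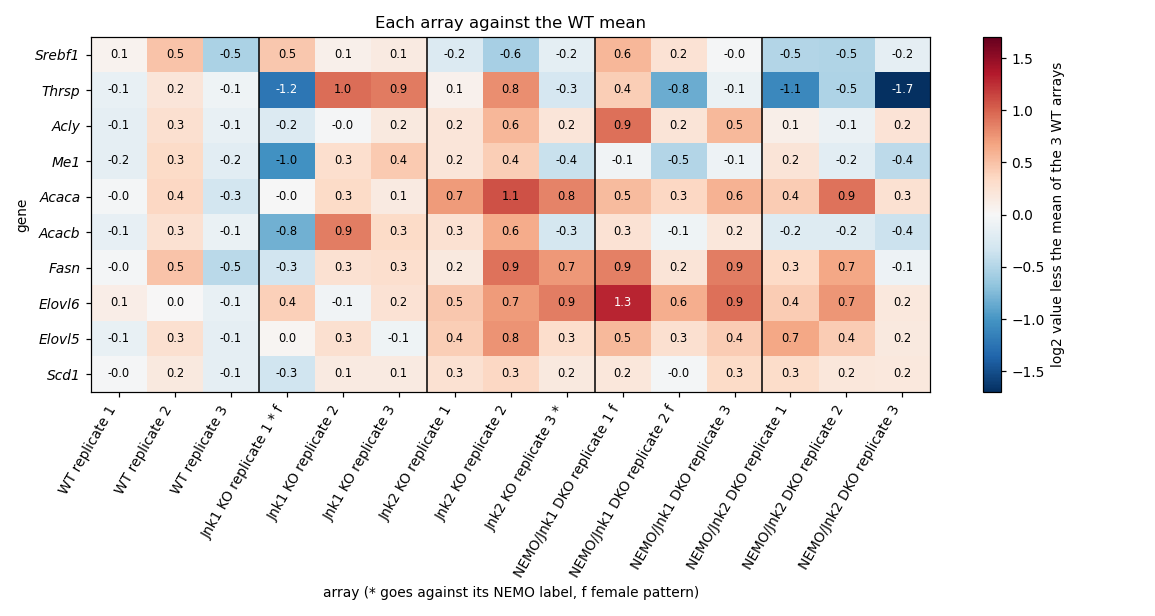
Log2 value of each gene (rows) in each array (columns) less the mean of the 3 WT arrays, with red above and blue below WT. Stars mark arrays that go against their NEMO label and f the female pattern. The Thrsp row is blue in all NEMO/Jnk2 DKO arrays (-1.1, -0.5 and -1.7) and the Elovl6 row red in all Jnk2 KO and DKO arrays, while columns such as WT replicate 2 are shifted across many genes.

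Loss of JNK1 alone gave no change in these genes that passed. Jnk1 KO and WT means differed by -0.10 (Me1) to 0.23 (Srebf1), with a member median of 0.10 against -0.03 for all genes. By limma 0 of 10 members passed, where 0.01% of all genes did, and 0 reached an unadjusted p under 0.05. The 95% interval for Fasn ran from -0.53 to 0.68, so a difference within those bounds was not resolved. Without the doubted replicate 1 all 10 differences were above 0, with Thrsp higher by 0.92 (SE 0.35) and Acacb by 0.60 (SE 0.17), both arrays of Jnk1 KO above all WT arrays, but neither passed (limma adjusted p = 0.976 for both). In that fit 0.015% of all genes passed, 2 members had an unadjusted p under 0.05, and 5.22% of all genes lay wholly above WT.

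In Jnk2 KO livers most of the synthetic genes had higher means than in WT, and none passed. Of the 10 members 9 had higher means than WT, and Acaca was higher by 0.89 (SE 0.18, limma adjusted p = 0.0583), a 1.85-fold difference, Elovl6 by 0.68 (SE 0.18, adjusted p = 0.131), Fasn by 0.61 (SE 0.28, adjusted p = 0.412) and Elovl5 by 0.49 (SE 0.16, adjusted p = 0.221). These 4 had an unadjusted p under 0.05, and none of the 10 passed, with 0.411% of all genes passing. Acaca, Elovl5 and Elovl6 did not overlap with WT, where 6.16% of all genes lay wholly above it. Srebf1 was the exception in sign, at -0.32 (SE 0.22, adjusted p = 0.594). The member median was 0.29, against -0.04 for all genes. A second probe set of Acaca gave 0.81 (SE 0.16, limma adjusted p = 0.0449 when every probe set was tested), and the difference passed in 8 of 28 other settings, among them the fits without WT replicate 2 (1.06, adjusted p = 0.0461), without Jnk1 KO replicate 1 (adjusted p = 0.0379) and without NEMO/Jnk2 DKO replicate 2 (adjusted p = 0.0412). Without the 2 doubted arrays Acaca was at 0.91 (SE 0.21, adjusted p = 0.0554), 0 members passed (5 at an unadjusted p under 0.05) and 1.24% of all genes did. Acaca, Acacb, Scd1, Elovl5 and Elovl6 then lay wholly above WT, as did 11% of all genes.

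Set directly against each other, Jnk1 KO was below Jnk2 KO in 8 of 10 members. Acaca (-0.73, SE 0.18, limma adjusted p = 0.235), Elovl6 (-0.49, SE 0.18, adjusted p = 0.548) and Elovl5 (-0.41, SE 0.16, adjusted p = 0.586) were lower, and Acaca, Acly, Scd1, Elovl5 and Elovl6 lay wholly below, as did 3.51% of all genes. Srebf1 lay wholly above, as did 4.5% of all genes. None passed, with 0.13% of all genes passing, and 4 members had an unadjusted p under 0.05. Without the doubted arrays the count stayed at 0 (3 at an unadjusted p under 0.05) with 0.597% of all genes passing, and Acaca was at -0.67 (adjusted p = 0.27). With 2 arrays a group, 5 members lay wholly below and 2 wholly above, as did 18.1% and 17.1% of all genes.

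On the Jnk1-null background, livers that also lacked hepatocyte NEMO had more Elovl6. As labelled, NEMO/Jnk1 DKO exceeded Jnk1 KO by 0.75 (SE 0.18) for Elovl6 and by 0.60 (SE 0.18) for Acly, but no member passed (limma adjusted p = 0.962 for both) and 0% of all genes did, with 2 members at an unadjusted p under 0.05. Acaca, Acly, Elovl5 and Elovl6 did not overlap, all higher in NEMO/Jnk1 DKO, as were 2.52% of all genes. For Elovl5 the groups nearly met, at 11.5982 in NEMO/Jnk1 DKO replicate 2 and 11.5952 in Jnk1 KO replicate 2. Without the 2 doubted arrays Elovl6 passed at 0.86 (SE 0.20, limma adjusted p = 0.0223), a 1.81-fold rise. It was the 1 member of 10 that passed, where 5.18% of all genes passed, 4.05% of all genes being higher in NEMO/Jnk1 DKO. Thrsp was lower in that fit without passing (-1.10, SE 0.35, adjusted p = 0.099), as were Me1 (-0.57, SE 0.20, adjusted p = 0.141) and Acacb (-0.47, SE 0.17, adjusted p = 0.167). All 3 lay wholly below the 2 Jnk1 KO arrays, as did 13.9% of all genes, and Acaca, Acly, Elovl5 and Elovl6 wholly above, as did 16.8%.

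The Elovl6 rise shares its samples with the sex pattern, since 2 of 3 NEMO/Jnk1 DKO arrays were female in pattern and the 2 remaining Jnk1 KO arrays were male. The male-pattern NEMO/Jnk1 DKO replicate 3 read 9.45, above all WT and Jnk1 KO arrays, and lay between the 2 female-pattern values of 9.81 and 9.14. With a term for the sex pattern the difference was 0.84 (SE 0.27), close to that without it, but did not pass (adjusted p = 0.215). That fit rests the group on replicate 3 alone. The call was also lost without Jnk1 KO replicate 2 (0.71, adjusted p = 0.171) and without NEMO/Jnk1 DKO replicate 1 (0.69, adjusted p = 0.0756), and over all 24 other settings the difference was 0.69 to 1.02 (adjusted p = 0.0113 to 0.215).

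On the Jnk2-null background all 10 members were lower in NEMO/Jnk2 DKO than in Jnk2 KO as labelled, whereas 8 of the 10 had been higher on the Jnk1-null background. Thrsp and Me1 were lower on both, and so was Acacb without the doubted arrays. Thrsp was lowest, at -1.30 (SE 0.51, limma adjusted p = 0.576), and lay wholly below, as did 6.38% of all genes. No member passed, 0.00502% of all genes did, and 1 member had an unadjusted p under 0.05. Without the 2 doubted arrays 2 of 10 members passed, both lower, where 5.85% of all genes passed in either direction and 1.98% were lower. Thrsp fell by 1.54 (SE 0.35, limma adjusted p = 0.0203), a 2.90-fold difference, and Acacb fell by 0.71 (SE 0.17, adjusted p = 0.0293), a 1.64-fold difference. Every NEMO/Jnk2 DKO array was below both Jnk2 KO arrays for these genes, which is so for 17.1% of all genes at these group sizes. Me1 was at -0.45 (SE 0.20, adjusted p = 0.262), and the other 7 lay between -0.37 (Acaca) and 0.01 (Srebf1).

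These calls leaned on few arrays. Without Jnk2 KO replicate 2, the liver with the highest values of many members, neither Thrsp (-1.17, adjusted p = 0.200) nor Acacb (-0.53, adjusted p = 0.248) passed. The same held without NEMO/Jnk2 DKO replicate 1 (adjusted p = 0.0586 and 0.0687) or replicate 3 (adjusted p = 0.0599 and 0.0832), and for Acacb without replicate 2 (adjusted p = 0.0583). Over the 24 other settings Thrsp stayed between -1.90 and -1.17 (adjusted p = 0.00982 to 0.200) and Acacb between -0.90 and -0.53 (adjusted p = 0.0173 to 0.248). All arrays in this comparison were male in pattern.

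Against WT, both DKO groups had higher means of the elongases and of Acaca, and Thrsp was low in one of them. In NEMO/Jnk1 DKO, Elovl6 was higher by 0.95 (SE 0.18, limma adjusted p = 0.0761), Fasn by 0.65 (SE 0.28, adjusted p = 0.275), Acly by 0.57 (SE 0.18, adjusted p = 0.156), Acaca by 0.49 and Elovl5 by 0.42. These 5 had an unadjusted p under 0.05 and none of the 10 passed, with 0.0652% of all genes passing. Elovl5 and Elovl6 lay wholly above WT, as did 11.5% of all genes, though Elovl5 nearly met WT at 11.5982 against 11.5964. When the 2 doubted arrays, which belong to neither group, were left out of the fit, the differences stayed as they were and Elovl6 passed (SE 0.17, limma adjusted p = 0.00476), a 1.93-fold rise, with 7.91% of all genes passing and 4.92% higher. The call held in all 13 fits that left out 1 more array. It was lost with the sex term (0.94, SE 0.26, adjusted p = 0.110) and without the 2 remaining female-pattern arrays (adjusted p = 0.0641).

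In NEMO/Jnk2 DKO, Acaca (0.54, SE 0.18, limma adjusted p = 0.129), Elovl6 (0.45, SE 0.18, adjusted p = 0.202) and Elovl5 (0.42, SE 0.16, adjusted p = 0.174) were above WT and Thrsp was below it (-1.10, SE 0.51, adjusted p = 0.26). None of the 10 passed, 2.63% of all genes did, and these 4 had an unadjusted p under 0.05. Scd1 and Elovl6 lay wholly above WT, as did 11.8% of all genes, and Acacb and Thrsp wholly below, as did 15.9%. In the fit without the doubted arrays Thrsp passed at -1.10 (SE 0.31, limma adjusted p = 0.0390), a 2.15-fold fall, where 10.6% of all genes passed and 4.86% were lower. Acacb was at -0.27 (SE 0.16, adjusted p = 0.349). The Thrsp call was kept in 13 of 24 other settings (adjusted p = 0.0166 to 0.149) and was lost without WT replicate 1, 2 or 3 (adjusted p = 0.0765, 0.133 and 0.0778), without Jnk1 KO replicate 2 or 3 (0.0518 each), and without NEMO/Jnk2 DKO replicate 1 (0.103) or 3 (-0.81, adjusted p = 0.149).

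The DKO groups also differed in level from each other. NEMO/Jnk1 DKO was above NEMO/Jnk2 DKO for 7 of 10 members, with Thrsp at 0.93 (SE 0.51, limma adjusted p = 0.999), Srebf1 at 0.65 (SE 0.22, adjusted p = 0.643), Elovl6 at 0.50 (SE 0.18, adjusted p = 0.706) and Acly at 0.49 (SE 0.18, adjusted p = 0.704). None passed, 0.105% of all genes did, and Acly, Elovl6 and Srebf1 had an unadjusted p under 0.05. Acacb and Srebf1 lay wholly above, as did 7.12% of all genes. In the fit without the doubted arrays the smallest adjusted p of a member was 0.394 (Srebf1), 5 members had an unadjusted p under 0.05, and 0.321% of all genes passed.

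Whether NEMO loss acted differently on the 2 backgrounds was tested as the difference of the 2 NEMO effects. As labelled all 10 members had a larger difference on the Jnk1-null background, with Elovl6 at 0.99 (SE 0.26), Fasn at 0.87 (SE 0.40), Acly at 0.84 (SE 0.25) and Acaca at 0.68 (SE 0.26), which had an unadjusted p under 0.05. By limma none passed (adjusted p = 1.000 for each of the 4) and 0% of all genes did. Without the doubted arrays Elovl6 was at 1.00 (SE 0.28, limma adjusted p = 0.385) and Acly at 0.80 (SE 0.28, adjusted p = 0.577), again with none passing, 2 at an unadjusted p under 0.05 and 0.01% of all genes passing. Thrsp, Me1 and Acacb were lower on both backgrounds in that fit, at -1.10 and -1.54, -0.57 and -0.45, and -0.47 and -0.71 (Jnk1-null first). As labelled, 1 of the 3 arrays of each single knockout in it is a doubted one.

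**Figure D3:**
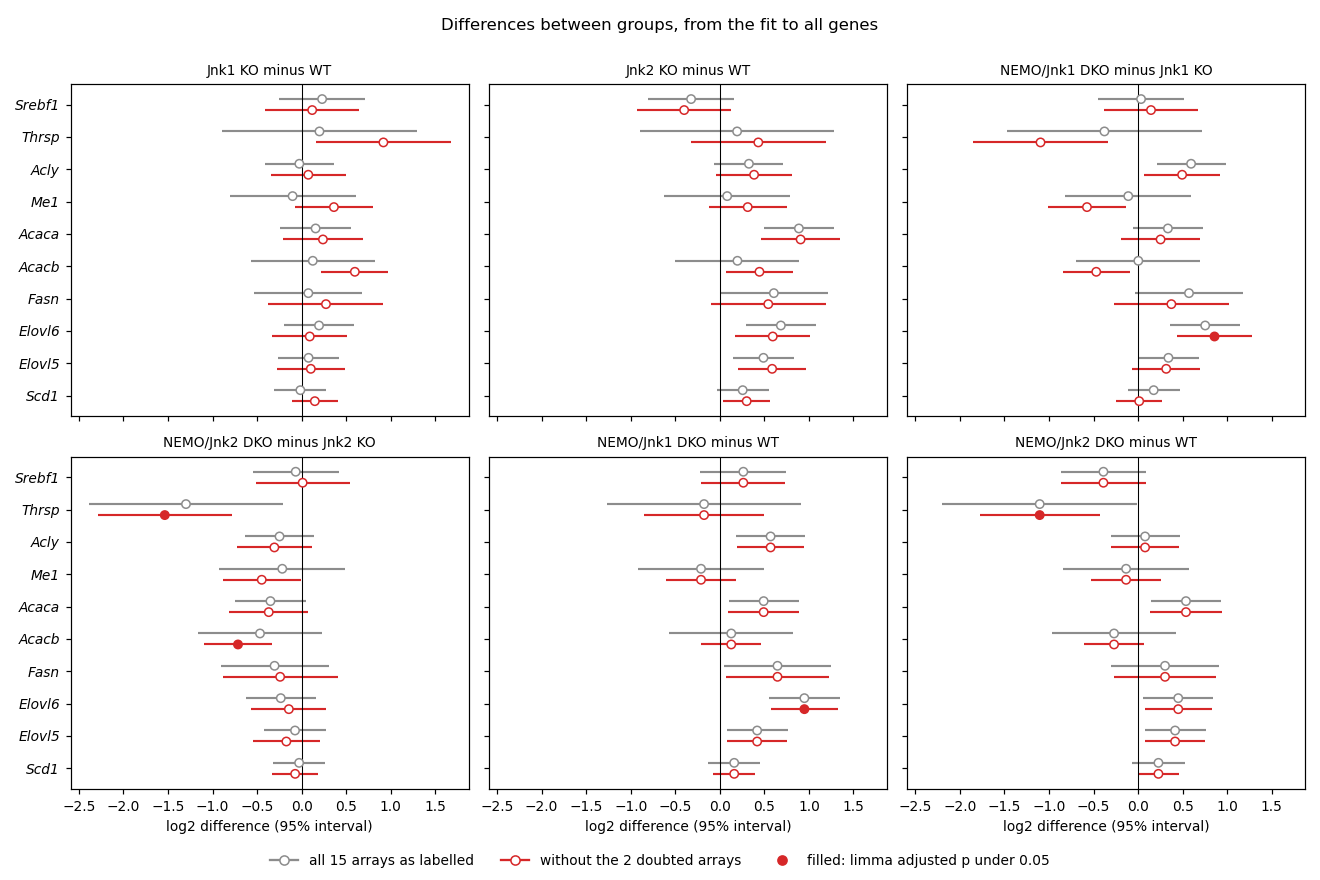
Log2 differences (horizontal axes, points, with 95% intervals as lines) of the 10 genes (vertical axes) in 6 comparisons, from all 15 arrays as labelled (grey) and without the 2 doubted arrays (red). Filled points had a limma adjusted p under 0.05. All 5 filled points are red: Elovl6 higher in NEMO/Jnk1 DKO against Jnk1 KO and WT, Thrsp lower in NEMO/Jnk2 DKO against Jnk2 KO and WT, and Acacb lower in NEMO/Jnk2 DKO against Jnk2 KO.

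Among 22 measured upstream regulators, movement was mostly downward in the DKO livers and was read without the 2 doubted arrays, since as labelled 1 regulator passed in any comparison between groups: Xbp1, a stress-response factor that also drives lipogenic genes, rose in Jnk2 KO (0.56, SE 0.11, limma adjusted p = 0.0482). Mlxipl, which encodes ChREBP, read 8.40, 8.96 and 8.27 in WT, 8.93 and 8.71 in the 2 Jnk1 KO arrays and 8.17 and 8.62 in the 2 Jnk2 KO arrays. It read 7.67, 7.53 and 7.99 in NEMO/Jnk1 DKO and 7.60, 7.79 and 7.65 in NEMO/Jnk2 DKO. Each DKO group lay wholly below WT, as did 14.1% (NEMO/Jnk1 DKO) and 15.9% (NEMO/Jnk2 DKO) of all genes. Each also lay wholly below the 2 arrays of its single knockout, as did 13.9% and 17.1%. The doubted arrays, at 7.41 and 7.77, lay below or among the DKO arrays.

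On 13 arrays Mlxipl fell in NEMO/Jnk1 DKO, both against WT (-0.81, SE 0.18, limma adjusted p = 0.0131) and against Jnk1 KO (-1.09, SE 0.20, adjusted p = 0.00583). In NEMO/Jnk2 DKO it fell against WT (-0.86, SE 0.18, adjusted p = 0.00686), while against Jnk2 KO it was at -0.71 (SE 0.20, adjusted p = 0.0541). As labelled Mlxipl did not pass in any of the 4 (adjusted p = 0.166 to 0.962; the differences from WT were the same). Thrb, a thyroid hormone receptor, fell against WT in both groups (-0.61 and -0.62, SE 0.12) and against both single knockouts, and as labelled it did not pass against WT (adjusted p = 0.187 and 0.134). In NEMO/Jnk1 DKO against Jnk1 KO, 3 of 22 regulators passed, all lower (Mlxipl, Thrb and the coactivator Ppargc1b), where 1.13% of all genes were lower. In NEMO/Jnk2 DKO against Jnk2 KO 3 passed, all lower (Thrb, Usf2 and the nuclear receptor partner Rxra), where 1.98% of all genes were. Against WT, 3 were lower in NEMO/Jnk1 DKO, as were 2.99% of all genes. In NEMO/Jnk2 DKO 4 were lower and 1 higher, against 4.86% and 5.75% of all genes. With the sex term, which rests NEMO/Jnk1 DKO on replicate 3 alone, Mlxipl was at -0.56 (SE 0.24, adjusted p = 0.366) and Thrb at -0.31 (SE 0.13, adjusted p = 0.376) against WT in that group, both lower without passing. Both still passed in NEMO/Jnk2 DKO (adjusted p = 0.00587 and 0.00139). In Jnk2 KO against WT, Insig1, the SREBP-retaining protein that is itself an SREBP target, fell on 13 arrays (-0.90, SE 0.16, adjusted p = 0.0176) and was at -0.70 as labelled (adjusted p = 0.117). The median over the 22 regulators was -0.18 for NEMO/Jnk1 DKO against WT, and -0.21 with NEMO/Jnk2 DKO, where it was -0.04 for all genes.

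Of 22 other enzymes of fatty acid synthesis, elongation and desaturation, few passed as labelled. Oxsm, the condensing enzyme of the separate mitochondrial pathway, fell in Jnk2 KO (-0.95, SE 0.14, limma adjusted p = 0.0107) and in NEMO/Jnk2 DKO (-1.04, SE 0.14, adjusted p = 0.00389) against WT. It read 7.70 to 7.83 in WT and 6.54 to 6.998 in all 6 Jnk2-null arrays, one of them doubted. Jnk1 KO and NEMO/Jnk1 DKO arrays read 7.26 to 7.75.

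Scd2, a desaturase close in sequence to Scd1, whose signals the probes may not fully separate, stood out in the DKO livers. It read 4.93, 5.50 and 6.27 in WT, 8.30, 6.65 and 6.59 in NEMO/Jnk1 DKO and 8.26, 8.04 and 7.60 in NEMO/Jnk2 DKO, and the doubted arrays read 7.24 and 8.60. On 13 arrays it rose against WT by 2.40 (SE 0.45, limma adjusted p = 0.00403) in NEMO/Jnk2 DKO and by 1.62 (SE 0.45, adjusted p = 0.0462) in the other DKO group, while Scd1 was at 0.23 (SE 0.11) and 0.16 (SE 0.11). As labelled Scd2 had the same differences without passing (adjusted p = 0.114 and 0.326). Elovl3, an elongase that is male-biased in mouse liver, fell in NEMO/Jnk1 DKO on 13 arrays by 5.50 (SE 0.98, adjusted p = 0.00389), where the 2 female-pattern arrays read 3.76 and 4.48 and the male-pattern array 8.98, against 10.79 to 11.54 in WT (as labelled adjusted p = 0.123). With the sex term it was at -2.26 (adjusted p = 0.0919) in that group and at -2.25 (adjusted p = 0.00431) in NEMO/Jnk2 DKO.

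Of 7 measured genes of NADPH supply other than Me1, Pgd, of the pentose phosphate pathway, was the 1 that passed. It read 7.87, 8.05 and 8.27 in WT, 8.90, 8.93 and 8.91 in NEMO/Jnk1 DKO and 9.14, 9.02 and 8.97 in NEMO/Jnk2 DKO. As labelled it rose against WT by 0.85 (SE 0.13, limma adjusted p = 0.0382) and 0.98 (SE 0.13, adjusted p = 0.00387), and on 13 arrays also against both single knockouts. Me1 was at -0.21 (SE 0.33) and -0.13 (SE 0.33) in the same comparisons with WT, without passing.

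**Figure D4:**
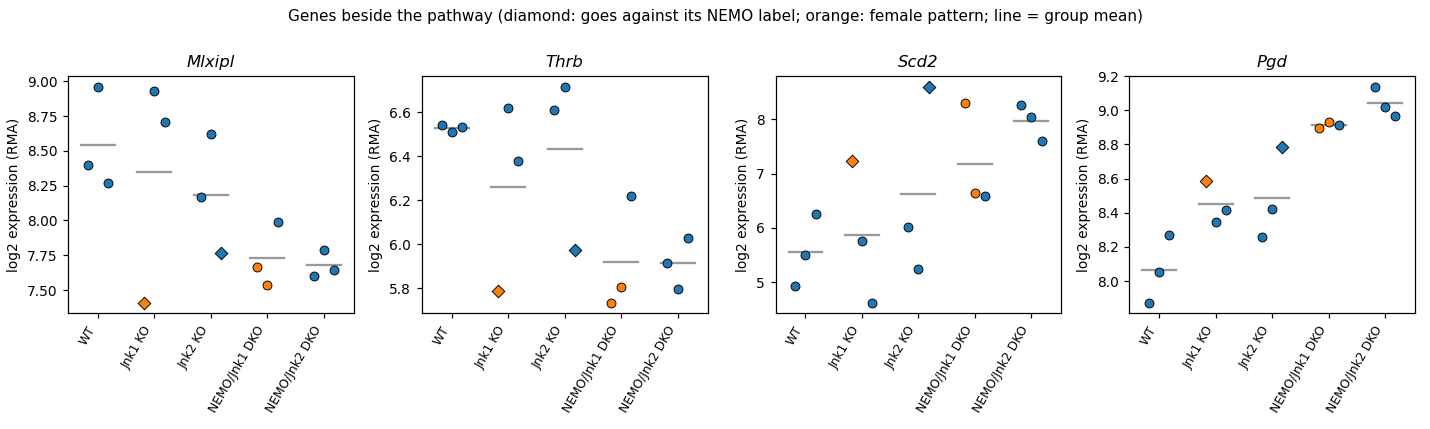
Log2 expression (RMA, vertical axes, each with its own range) of Mlxipl, Thrb, Scd2 and Pgd in the 15 livers by group (horizontal axes), 1 point per array with group means as lines. Diamonds are the 2 arrays that go against their NEMO label and orange marks the female pattern. Mlxipl and Thrb are lower and Pgd is higher in the DKO arrays than in all WT arrays, and the diamonds lie nearer to the DKO arrays than the rest of their groups do.

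Genes of the insulin and fasting response and of the clock, which set the activity of lipogenesis over the day, were not level between the groups. On 13 arrays 5 of 14 insulin and fasting genes fell and 1 rose in NEMO/Jnk2 DKO against Jnk2 KO, where 1.98% of all genes fell and 3.88% rose. Among them were the gluconeogenic G6pc (-1.12, SE 0.15, limma adjusted p = 0.00111), the insulin-repressed Igfbp1 (-1.09, SE 0.23, adjusted p = 0.0150) and Pdk4, which spares glucose in fasting (1.76, SE 0.35, adjusted p = 0.00918). As labelled none of the 14 passed there, with these 3 at -0.81, -0.58 and 1.33 (adjusted p = 0.514, 0.75 and 0.602). Igfbp1 read 11.05 and 11.75 in the 2 Jnk2 KO arrays, 8.44 and 8.33 in the 2 Jnk1 KO arrays, 9.61 to 10.29 in WT and 9.75 to 10.45 in the DKO arrays, so the single knockouts lay on either side of the rest. It was also the 1 gene of this list to pass as labelled, in Jnk1 KO against Jnk2 KO (-2.19, SE 0.38, adjusted p = 0.0443). Of 16 clock genes, Tef (-1.01, SE 0.24, adjusted p = 0.0154), Nr1d2, Per2 and Hlf fell on 13 arrays in NEMO/Jnk2 DKO against WT, the comparison in which Thrsp fell and 4.86% of all genes did. As labelled none of the 16 passed there (Tef adjusted p = 0.0611). Of 13 other targets of SREBP1c, ChREBP or LXR, Lpin1 rose on 13 arrays in Jnk2 KO against WT (2.33, SE 0.44, adjusted p = 0.0222), where 1.24% of all genes passed, and was at 1.53 as labelled (adjusted p = 0.458). In NEMO/Jnk2 DKO against WT 2 fell and 1 rose on 13 arrays, against 4.86% and 5.75% of all genes, and none passed as labelled. The part of feeding state, clock phase or any of these genes in the differences of the members was not tested.

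Macrophage and stellate cell transcripts and cell cycle genes were higher in the DKO livers. Endothelial marker means were 7.05 to 7.37 in WT, 7.23 to 7.41 in NEMO/Jnk2 DKO and 7.43 to 7.53 in NEMO/Jnk1 DKO. NEMO/Jnk1 DKO thus lay wholly above WT for these markers. Cholangiocyte marker means were 4.27 to 4.66 in WT and 4.52 to 5.21 in NEMO/Jnk1 DKO. Means of T and NK cell markers were 3.37 to 3.44 in WT. They overlapped WT in NEMO/Jnk1 DKO (3.33 to 3.70) but lay wholly above it in NEMO/Jnk2 DKO (3.52 to 3.84). B cell marker means were 3.61 to 3.885 in WT and overlapped it in NEMO/Jnk2 DKO (3.83). In NEMO/Jnk1 DKO (3.891 to 4.12) they lay above WT by a narrow margin. Neutrophil marker means overlapped WT in both DKO groups. Mean levels of 11 hepatocyte markers were 12.35 to 12.49 in WT and 12.29 to 12.33 in NEMO/Jnk2 DKO, which lay wholly below WT. They were 12.33 to 12.38 in NEMO/Jnk1 DKO, 12.33 to 12.37 in Jnk1 KO and 12.32 to 12.52 in Jnk2 KO. The mean of 12 macrophage markers was 5.74 to 6.22 in WT and 7.08 to 7.62 in the DKO arrays, with the doubted arrays at 7.45 and 7.35, and 9 of 12 rose in each DKO group against WT on 13 arrays. Likewise 7 of 10 stellate cell and matrix markers rose in each, and 10 of 11 cell cycle genes in NEMO/Jnk1 DKO and 11 of 11 in NEMO/Jnk2 DKO, where 4.92% and 5.75% of all genes rose. As labelled, 1 macrophage marker and 1 cell cycle gene passed, both in NEMO/Jnk2 DKO. Of fat cells, which express the same synthetic genes, Adipoq was at 2.10 to 2.96 and Lep at 2.75 to 3.24 in all 15 arrays, below the 40th percentile of all values (3.69), whereas Retn at 3.53 to 4.12 and Plin1 at 3.57 to 4.40 lay around it. The mean of the 8 measured adipocyte markers was 3.84 to 4.13 in 14 arrays and 4.43 in the doubted Jnk2 KO replicate 3. The mean of 10 female-biased liver genes was 7.59 and 7.85 in the female-pattern NEMO/Jnk1 DKO arrays and 5.44 in the third. It was 4.94 to 5.73 in the male-pattern NEMO/Jnk2 DKO arrays, against 4.34 to 4.71 in WT. The mean of 10 male-biased liver genes was 9.52 to 10.04 in WT and 8.32 to 9.29 in Jnk2 KO. It was 7.61 to 8.69 in NEMO/Jnk2 DKO and 5.06 to 8.57 in NEMO/Jnk1 DKO. The part of these cells and of sex in the results of the members was not tested.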

How the data were processed

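The authors deposited 1 log2 expression value per probe set and array, and the submitters' processing notes name RMA as the normalization. That the base is 2 was read from the range of values. Each array has a mouse number of its own, per the labels. Array medians were 4.26 to 4.38, and the number of arrays limits the precision.

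Of 35556 probe sets, 21789 had 1 gene symbol in the platform's annotation, 1621 had several and 12146 were not listed. Only the first were used, with the brightest standing for the 999 genes that had more than 1. limma 3.58.1 (R 4.3.3, lmFit and eBayes) was fitted with 1 mean per group and Benjamini-Hochberg adjustment over 19938 genes, at an adjusted p of 0.05, for 9 comparisons. A gene set apart by non-overlap had all arrays of one group above all of the other. Of 241 listed symbols 220 were measured. Of a list, up to 4 genes past the threshold with the largest change were named, or fewer. The script was tested on simulated data. The members, the lists, the 2 doubted arrays and the settings were chosen with earlier results of these data known. Figures were drawn with matplotlib 3.10.9.

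Other settings were array weights, fitting only the arrays compared, a robust prior with an intensity trend, renewed quantile normalization, centring, a filter on dim genes (above the 40th percentile in 3 arrays), every probe set, a minimal change of 1.5-fold, the replicate number as a block, the sex pattern as a term or left out, and each array left out in turn. Those run on the 13 arrays were added after seeing the data.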

Additional observations from a re-analysis of the deposited data

How the results depend on the processing

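With 3 arrays a group (2 in the single knockouts without the doubted arrays), differences near 0.5 on the log2 scale were often not resolved. No direction of a difference that passed in one setting turned in another. As labelled, 0 of 10 members passed in every comparison. For Jnk2 KO against WT 1 member (Acaca) passed with an intensity trend and robust prior, renewed quantile normalization, centring, the replicate block and the sex term (0 to 1 with 1 array left out). For NEMO/Jnk1 DKO against WT 1 passed with only the arrays compared, with array weights and without the doubted arrays (0 to 1 with 1 array left out), and against Jnk1 KO 1 passed without the doubted arrays. For NEMO/Jnk2 DKO against Jnk2 KO 2 passed without the doubted arrays, with or without the sex term; against WT 1 passed in both of these, with only the arrays compared and without the female-pattern arrays.

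Without the doubted arrays, Jnk2 KO against WT went from 0 to 1 with renewed quantile normalization, centring and the dim filter (0 to 1 with 1 array left out). NEMO/Jnk1 DKO against Jnk1 KO went from 1 to 0 with only the arrays compared, array weights, the replicate block, the sex term and without the female-pattern arrays (0 to 1 with 1 array left out). NEMO/Jnk1 DKO against WT went from 1 to 2 with renewed quantile normalization and to 0 with the sex term or without the female-pattern arrays (1 to 2 with 1 array left out). NEMO/Jnk2 DKO against Jnk2 KO went from 2 to 1 with only the arrays compared and with the trend (0 to 2 with 1 array left out). NEMO/Jnk2 DKO against WT went from 1 to 0 with the trend, array weights and the replicate block, and to 2 with renewed quantile normalization (0 to 1 with 1 array left out). The causes were not tested. Same-numbered arrays did not deviate together (correlation -0.39 to 0.30, median 0.00 over 30 pairs, against -0.46 to 0.57 for other numbers), so the replicate number was not taken as a pairing.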
